A study of Danio rerio with 12 samples.

Results

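Whether transcript levels change differently between an early cleavage stage and the sphere stage when smchd1 is missing was asked of all 12 libraries of the study, 3 in each of 4 groups. The measure was a difference of differences, called the interaction here: the sphere over 4- to 8-cell log2 fold change of mutant embryos minus that of wildtype embryos. All embryos were zebrafish of the AB strain, and poly-A RNA was sequenced from pools of 30 to 50 embryos. The wildtype (wt) groups were 4- to 8-cell and sphere embryos. The mutant (MZ) groups were maternal-zygotic smchd1 embryos of the same stages, which lack the gene product from mother and embryo and carry the CRISPR allele lof1 on both chromosomes. A single allele of the gene is thus represented, each library averages a pool of whole embryos, and no label says that replicates were separate clutches, so the p-values rest on a spread that could be technical.

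Smchd1 is a chromatin protein that carries the hinge domain of SMC proteins and is known from mammals for the silencing of the inactive X chromosome and of imprinted and clustered genes. An early zebrafish embryo runs on RNA that its mother placed in the egg, and its own genome is silent during the first cleavages. By the sphere stage, a blastula, many maternal transcripts are being cleared and transcription from the embryo's genome has begun, so that a stage difference holds both the loss of maternal RNA and the gain of new RNA. Poly-A selection also reads changes in the length of the poly-A tail, and a change of tail and a change of RNA level cannot be told apart in these libraries. In such bulk samples, fewer cells of a type and less RNA per cell cannot be told apart either.

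Libraries held 7829742 to 23681822 expected counts, the fewest in MZ sphere replicate 1. That library also held the largest share of counts on the ribosomal RNA gene zgc:158463 (3.98%, against 0.00632% to 0.0221% in the wt sphere libraries). Levels are given as CPM, counts of a gene relative to the library's total, scaled by the trimmed mean of M-values, in the order of replicates 1, 2 and 3. In a principal component analysis the first component separated the stages (63.1% of the variance) and the second the genotypes (11.3%). Markers of other tissues that could reach an embryo pool were tested for ovarian follicle, blood, testis, muscle and neural tissue. They gave no called gene among the 28 tested, by edgeR or by DESeq2, and 3 of the 28 had an unadjusted p under 0.05. Over all genes, edgeR called 290 of 16525 (1.75%) and DESeq2 1447 of 16505, and 3424 had an unadjusted p under 0.05. The lack of calls among 28 markers therefore does not show that such tissue was absent. Median interactions of the markers were 1.08 for testis (5 of 6 positive), 0.93 for blood (3 of 3) and 0.42 for muscle (7 of 9). Those of ovarian follicle and neural markers were 0.37 (2 of 3) and 0.03 (4 of 7), against 0.02 over all genes. None of the 19 liver and yolk precursor markers was expressed enough for the test. The 13 blood markers summed to 9.2 to 10.32 CPM in MZ sphere libraries and to 3.17 to 9.99 CPM in the other 9, and the part of this in any result was not tested.

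A stage change that differed with genotype was called for a small share of genes. Of 16525 genes tested, 290 (1.75%) had an interaction that passed at an adjusted p under 0.05 (edgeR quasi-likelihood, Benjamini-Hochberg). An unadjusted p under 0.05 was reached by 3424 genes, and DESeq2 called 1447, so genes that were not called cannot be taken as alike in both genotypes. For 177 of them (1.07%) the stage change of MZ embryos lay above that of wt embryos, and for 113 (0.684%) it lay below. The 195 calls (1.18%) with an interaction of more than 2-fold were 124 above and 71 below. In 288 of the 290 called genes, every difference between an MZ sphere and an MZ 4- to 8-cell library lay on one side of every such wt difference, which held for 11.6% of all genes tested. The calls rest on these same differences, so this separation adds no support to them. The median size of a called interaction was 1.38 on the log2 scale, and the median over all genes was 0.0226. Scaling bore on the split of directions: 61% of calls lay above wt with the main factors, 49.9% with upper-quartile factors (173 above, 174 below) and 70.3% with no scaling factor.

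**Figure D1:**
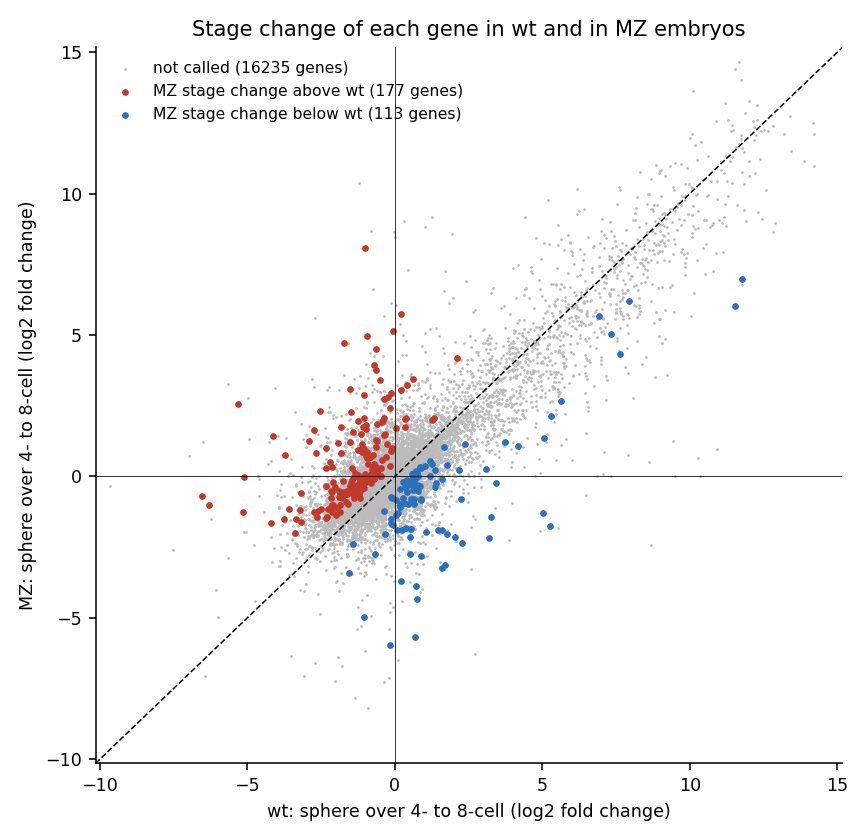
Each point is 1 of the 16525 genes tested, with its sphere over 4- to 8-cell log2 fold change in wt embryos on the horizontal axis and in MZ embryos on the vertical axis. The dashed line marks equal changes. The 177 red genes lie above the line, and the 113 blue genes lie below it.

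With all 12 libraries, most called genes had a called genotype difference at sphere and none early, where a difference that was not called may still exist. Among the 177 genes with a stage change above wt, 119 were higher in MZ embryos at sphere and not called before, 43 were lower in MZ embryos early and not called at sphere, and 8 went from lower to higher. Among the 113 genes below wt, 82 were called lower in MZ embryos at sphere only, 25 were called higher at the 4- to 8-cell stage only, and 5 went from higher to lower. Over all tested genes the called shares were 7.69% higher and 7.7% lower in MZ embryos at sphere, and 1.69% higher and 2.33% lower at the 4- to 8-cell stage. They are no baseline for genes chosen by the interaction, which is the difference of these same differences.

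The stage changes of the called genes are given as a description, and since the interaction holds both stage changes, nothing is read from them against the shares over all genes. Of the 177 genes above wt, 138 fell between the stages in wt embryos, and 25.6% of all tested genes did so. In MZ embryos 54 of these 138 also fell, 54 did not pass either way and 30 rose. A further 36 rose in MZ embryos alone and 3 rose in both, and 18.4% of all tested genes rose in MZ embryos. Of the 113 genes below wt, 79 rose in wt embryos, and 22.4% of all tested genes did so. In MZ embryos 39 of the 79 did not pass, 23 fell and 17 rose. A further 29 fell in MZ embryos alone and 5 fell in both, and 21.1% of all tested genes fell in MZ embryos. Altogether 53 called genes changed in opposite directions between the genotypes, 30 upward and 23 downward in MZ embryos. With all libraries, 107 genes fell in wt embryos and were called higher in MZ embryos at sphere only. These counts were recomputed without each MZ sphere library, a choice made after seeing the data. Without replicate 1, which had the fewest counts, the 119, 82, 43 and 25 genes became 235, 178, 48 and 38, and the 138 and 79 became 266 and 133. Without replicate 2 they were 7, 7, 9 and 5, then 12 and 8, and without replicate 3 they were 6, 9, 8 and 7, then 10 and 10. Genes called at sphere only thus no longer predominated without replicate 2 or 3. Leaving out an MZ sphere library takes a library from the sphere comparison and none from the early one. Lost power and a lost pattern therefore cannot be told apart here. The 107 genes became 210, 7 and 6 without replicates 1, 2 and 3, and the 53 became 88, 11 and 9.

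**Figure D2:**
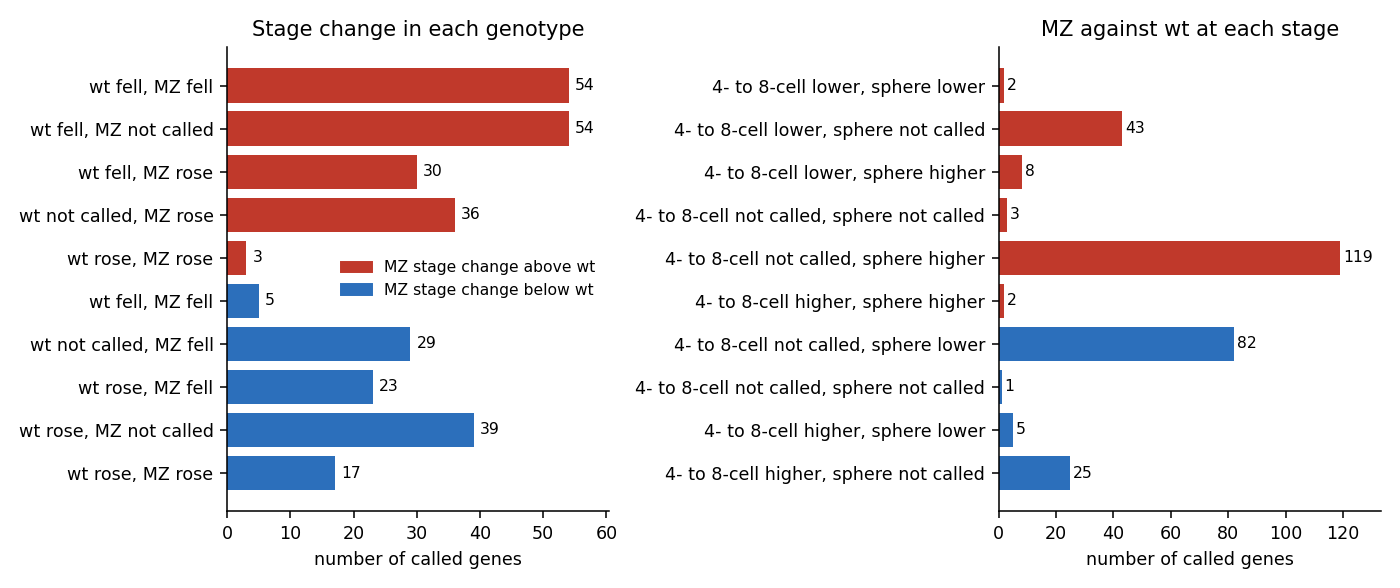
Bars count the 290 called genes by their called stage change in each genotype (left) and by the called difference of MZ from wt embryos at each stage (right), in red for genes with an MZ stage change above wt and in blue for those below. The longest bars on the right are the 119 genes called higher and the 82 called lower in MZ embryos at sphere only.

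A smaller difference ran through the many genes that changed with stage. Genes were split by the mean of their stage changes in wt and MZ embryos, a value that is balanced against the interaction. The 1949 genes that fell by over 2-fold had a median stage change of -1.56 in wt and -1.27 in MZ embryos on the log2 scale, and a median interaction of 0.34. In this group 69.6% of genes had a positive interaction, against 51.7% of all genes, and 49 were called above and 11 below wt. The 2022 genes that rose by over 2-fold had medians of 3.17 in wt and 2.84 in MZ embryos and a median interaction of -0.26, with 37.8% positive and 21 called above and 19 below. Among the 769 of them that rose by over 16-fold, the median interaction was -0.40, with 0 called above and 7 below. The 8390 genes that changed by under 0.5 on the log2 scale had a median interaction of -0.02. The difference was thus one of degree, with falling genes falling less and rising genes rising less in MZ embryos at the median.

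Single libraries showed how far this held. For the falling genes, the median change of each wt sphere library from the mean of the wt 4- to 8-cell libraries was -1.52, -1.55 and -1.24 on the log2(CPM + 0.5) scale, and that of the MZ sphere libraries from their own was -1.23, -1.22 and -1.03. The groups did not overlap, although wt replicate 3 lay close to MZ replicates 1 and 2. For the rising genes the medians were 2.08, 2.2 and 1.93 in wt and 2.01, 2.01 and 1.62 in MZ sphere libraries, and these ranges overlapped. MZ sphere replicate 3 had the smallest change in both sets, and wt sphere replicate 3 had the smallest among the wt sphere libraries in both. Without MZ sphere replicate 3 the median interaction was 0.23 for falling and -0.19 for rising genes. Without wt sphere replicate 3 it was 0.48 and -0.34. Over all settings tried the median interaction kept its sign, from 0.23 to 0.49 and from -0.35 to -0.07. A difference in the exact age of the pools and a difference in the pace of change cannot be told apart here.

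The transcript of smchd1 itself (SMCHD1 in the gene table) was present in wt libraries at 262, 224 and 218 CPM at the 4- to 8-cell stage and at 290, 206 and 182 CPM at sphere. In MZ libraries it stood at 7.72, 5.27 and 6.28 CPM and at 3.42, 4.04 and 3.49 CPM. Each MZ library was far below each wt library at either stage. Its interaction was -0.75 (SE 0.27) and did not pass (adjusted p = 0.152, edgeR). The remaining transcript fell with stage in MZ embryos (log2 -0.80), and the change in wt embryos did not pass (-0.05, adjusted p = 0.814).

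Ligands and receptors of the early embryo were among the clearest single cases. The gene gdf3 encodes the zebrafish counterpart of Vg1, a maternally supplied TGF-beta ligand that works together with Nodal in forming mesoderm and endoderm. It stood at 328, 361 and 285 CPM in wt 4- to 8-cell libraries and at 514, 484 and 545 CPM in wt sphere libraries. In MZ embryos it stood at 460, 404 and 466 CPM at the early stage and at 264, 261 and 242 CPM at sphere. The order of the genotypes turned over, since every MZ library was above every wt library at the 4- to 8-cell stage and below it at sphere. The transcript rose in wt embryos (log2 0.66) and fell in MZ embryos (-0.80), an interaction of -1.46 (SE 0.14, adjusted p = 0.00233, edgeR), the smallest adjusted p among genes with a proper symbol. It passed with each library left out in turn (highest adjusted p = 0.0115).

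BMP2 (ENSDARG00000041430, 1 of 2 identifiers with this symbol) encodes a ligand of the bone morphogenetic protein family, which patterns the belly side of the embryo. It was near absent from wt 4- to 8-cell libraries (0.588, 0.387 and 0.653 CPM) and reached 128, 101 and 97.3 CPM in wt sphere libraries. MZ embryos held more of it before zygotic transcription (5.57, 3.23 and 3.9 CPM) and 90.2, 92.6 and 73.6 CPM at sphere. The genotypes overlapped at neither stage, with MZ libraries higher early and lower at sphere, where the difference did not pass (log2 -0.35, adjusted p = 0.219). The interaction was -3.30 (SE 0.33, adjusted p = 0.00256) and passed with each library left out.

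The other called genes of the Nodal, BMP, Wnt and Fgf pathways went both ways. FZD8 (ENSDARG00000038569), a Wnt receptor, was lower in MZ embryos of 4 to 8 cells only, with 3.32, 3.34 and 5.57 CPM in wt against 0.928, 0.963 and 1.1 CPM in MZ libraries, and 15.3, 20 and 17.3 against 23.5, 15.5 and 16.4 CPM at sphere. Its interaction was 2.1 (SE 0.38, adjusted p = 0.0286), and 6 of the 12 fits that left out a library lost the call, with the highest adjusted p of 0.0705 without MZ sphere replicate 3. BMPR1A (ENSDARG00000105045), a BMP receptor named after its values were seen, fell in both genotypes and less in MZ embryos (-1.31 in wt, -0.49 in MZ, interaction 0.82, adjusted p = 0.0286), and passed in 5 of 12 fits with a library left out. Of the 69 genes of these pathways tested, 2 were called above and 2 below wt, against 1.07% and 0.684% of all genes. The median interaction of the list was 0 to 2 decimals, against 0.02 over all genes.

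For 3 further genes the genotype difference was called at the 4- to 8-cell stage and not at sphere. The receptor erbb3b, which binds neuregulins, stood at 9.37, 13.1 and 13.4 CPM in wt and 1.76, 0.793 and 1.04 CPM in MZ 4- to 8-cell libraries. At sphere it stood at 2.2, 1.42 and 1.1 CPM in wt and 3.02, 2.43 and 3.1 CPM in MZ libraries. It fell in wt embryos (log2 -2.92) and rose in MZ embryos (1.24), an interaction of 4.16 (SE 0.51, adjusted p = 0.00978). MZ libraries lay below all wt libraries early and above all of them at sphere. EFNA1 (ENSDARG00000018787), a membrane-bound ligand of Eph receptors and named after its values were seen, differed in the same place, with 30.3, 26.8 and 33.8 CPM in wt against 2.88, 4.02 and 3.78 CPM in MZ early libraries. Its sphere levels overlapped (32.8, 69.1 and 38.1 against 49.9, 35.3 and 30.5 CPM), and its interaction was 2.81 (SE 0.40, adjusted p = 0.0124). FNDC1, a protein with fibronectin type III domains, was at 13.4, 13.7 and 14.3 CPM in wt and 1.71, 0.566 and 1.04 CPM in MZ early libraries. At sphere its levels were 7.22, 9.08 and 8.95 CPM in wt and 9.73, 21.6 and 19.9 CPM in MZ libraries, the latter a rise of 3.94 on the log2 scale (interaction 4.65, SE 0.53, adjusted p = 0.00718). Its order turned over in the same way. These 3 genes passed with each library left out.

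APLNR, the receptor of the hormones apelin and Elabela, had its called genotype difference at sphere (log2 1.58), while that at the early stage did not pass (-0.81, adjusted p = 0.101). It stood at 9.2, 4.89 and 6.43 CPM in wt and 4.59, 3.23 and 3.9 CPM in MZ early libraries, and at 5.2, 5.09 and 5.4 against 14.5, 16.5 and 15.8 CPM at sphere. MZ libraries were below all wt libraries at the first stage and above all of them at the second. The transcript rose in MZ embryos alone (log2 2.00), an interaction of 2.38 (SE 0.36, adjusted p = 0.0153) that was lost without MZ sphere replicate 2 (0.0622) or 3 (0.0528). APLNR and BMP2 were the 2 called genes of 74 tested in the list of early zygotic genes, against 1.75% of all tested genes. That list rose by a median of 6.88 in wt and 6.01 in MZ embryos, with a median interaction of -0.05, and 62 of the 74 rose in each genotype.

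**Figure D3:**
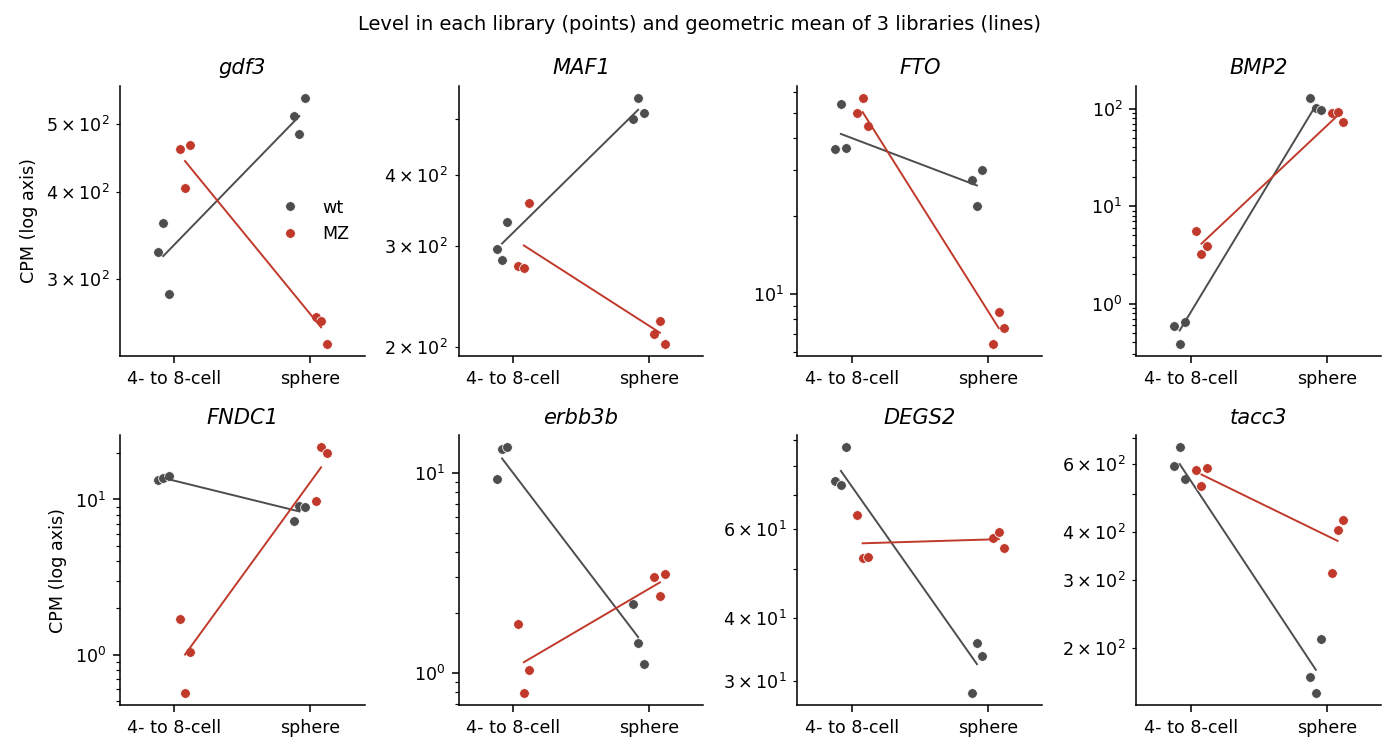
CPM of 8 genes on log axes, with 1 point for each of 3 libraries per genotype and stage (wt grey, MZ red) and lines joining geometric means. The lines of gdf3 and MAF1 run in opposite directions, FNDC1 and erbb3b differ at the 4- to 8-cell stage, and DEGS2 and tacc3 differ at sphere, where MZ libraries are higher.

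Genes named by their small adjusted p below wt included MAF1 and FTO. MAF1, a repressor of RNA polymerase III, had overlapping levels at the early stage (297, 283 and 331 CPM in wt, 277, 275 and 357 CPM in MZ). At sphere it was at 501, 544 and 513 CPM in wt and at 211, 222 and 202 CPM in MZ libraries, which did not overlap. It rose in wt (log2 0.77) and fell in MZ embryos (-0.52), an interaction of -1.29 (SE 0.15, adjusted p = 0.00718). FTO, an enzyme that removes methyl groups from adenosine in RNA, fell in both genotypes and further in MZ embryos. It went from 36.1, 53.8 and 36.6 to 27.6, 21.8 and 30 CPM in wt and from 50.1, 56.9 and 44.5 to 6.44, 8.52 and 7.37 CPM in MZ libraries. Its stage changes of -0.67 and -2.75 gave an interaction of -2.08 (SE 0.28, adjusted p = 0.011).

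PRRC2B, an RNA-binding protein linked to translation, and patl1, a factor of mRNA decapping, were named after their values were seen. PRRC2B went from 134, 150 and 151 to 198, 147 and 128 CPM in wt and from 138, 163 and 153 to 66.1, 61.5 and 59.1 CPM in MZ libraries. It fell in MZ embryos alone (log2 -1.29), with an interaction of -1.41 (SE 0.20, adjusted p = 0.0118). MAF1, FTO and PRRC2B passed with each library left out. The rise of patl1 in wt embryos (0.75) was not seen in MZ embryos (0.02, adjusted p = 0.876), an interaction of -0.72 (SE 0.15, adjusted p = 0.0392, edgeR) that 10 of the 12 fits with a library left out lost (highest adjusted p = 0.0867, without MZ 4- to 8-cell replicate 3). No gene of the list of maternal RNA clearance machinery was called by edgeR out of 63 tested, with 19 at an unadjusted p under 0.05, 4 called above and 2 below wt by DESeq2, and 0 by limma. Over all 16525 genes tested, edgeR called 290 (1.75%), and 3424 were at an unadjusted p under 0.05. DESeq2 called 759 above and 688 below wt of 16505. Nothing about the list is read from its counts.

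RAB10, a small GTPase of vesicle transport, followed the course of MAF1. It rose from 68.7, 72.4 and 61.3 to 119, 104 and 118 CPM in wt and fell from 61.1, 55.8 and 59.3 to 46.9, 52.5 and 45.1 CPM in MZ libraries, with MZ libraries just below wt libraries early and far below them at sphere (interaction -1.04, SE 0.14, adjusted p = 0.011). Among genes of chromatin and DNA, the calls went both ways. QSER1, a protein that in human stem cells keeps DNA methylation away from regulatory regions, changed order between the stages. It stood at 1.81, 1.35 and 1.91 CPM in wt and 6.93, 9.29 and 6.4 CPM in MZ early libraries, and at 3.85, 7.34 and 4.05 against 2.37, 1.99 and 1.71 CPM at sphere. Its interaction was -3.49 (SE 0.46, adjusted p = 0.011), and both genes passed with each library left out.

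DNMT3A (ENSDARG00000005394), 1 of 2 identifiers of a de novo DNA methyltransferase, fell in MZ embryos alone. It was at 7.52, 7.98 and 8.49 CPM and then 10.5, 5.92 and 8.53 CPM in wt, and at 13.8, 12.3 and 13.3 CPM and then 3.68, 3.11 and 3.96 CPM in MZ libraries. MZ libraries were above wt at the early stage, a difference that did not pass there (adjusted p = 0.104), and below it at sphere (log2 -1.22). The interaction was -1.94 (SE 0.33, adjusted p = 0.0232), and was lost without MZ 4- to 8-cell replicate 3 or MZ sphere replicate 2 or 3 (highest adjusted p = 0.0751). The histone H3 lysine 9 methyltransferase setdb1a fell in both genotypes, from 465, 498 and 449 to 140, 150 and 175 CPM in wt and from 445, 495 and 450 to 225, 228 and 253 CPM in MZ libraries. Its interaction of 0.63 (SE 0.13, adjusted p = 0.0401) passed in 2 of 12 fits with a library left out. These were the 2 calls among 50 genes of DNA methylation and repressive chromatin, and 1.75% of all tested genes were called.

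Chromatin genes outside that list were named after their values were seen, and went both ways. SETD1B, a histone H3 lysine 4 methyltransferase, went from 75.4, 80.3 and 77.3 to 35.6, 42.3 and 38.1 CPM in wt and from 69.1, 72.9 and 73.5 to 64.3, 62.9 and 62 CPM in MZ libraries (interaction 0.82, SE 0.13, adjusted p = 0.0165). The fall of over 1 log2 unit in wt embryos (-1.01) had no called counterpart in MZ embryos (-0.19, adjusted p = 0.114). KANSL1 of a histone acetyltransferase complex (0.87), INO80 of a nucleosome remodelling complex (0.90) and CBX8 (ENSDARG00000098771) of a Polycomb complex (0.82) had interactions of the same sign, with adjusted p-values of 0.02, 0.0244 and 0.0327. HDAC5, a histone deacetylase, went the other way, with a fall in MZ embryos (-1.07) and none called in wt (0.16, interaction -1.23, adjusted p = 0.0399), and passed in 4 of 12 fits with a library left out. Without MZ sphere replicate 2 or 3, SETD1B, KANSL1, INO80 and CBX8 lost their calls (adjusted p from 0.0528 to 0.0965).

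Of 38 SMC complex genes tested, cohesin, condensin and their partners, 2 were called, both below wt, where 0.684% of all tested genes were called. ESCO2, which acetylates cohesin during replication, went from 162, 203 and 179 to 327, 386 and 270 CPM in wt and from 326, 340 and 316 to 284, 261 and 230 CPM in MZ libraries. The early MZ level was as high as the sphere wt level, and the difference between genotypes passed at the early stage only (log2 0.85). Its interaction was -1.2 (SE 0.18, adjusted p = 0.0165). nsmce4a, a subunit of the SMC5/6 complex, rose in wt embryos (107, 91.4 and 107 to 178, 139 and 153 CPM), while MZ libraries went from 122, 105 and 111 to 104, 105 and 106 CPM (interaction -0.72, SE 0.15, adjusted p = 0.0344). Both were lost without MZ sphere replicate 2 (0.0622 and 0.0878) or 3 (0.0515 and 0.0922), nsmce4a also without 6 other libraries. The median over the list was -0.02.

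The 2 called histone genes of 26 went in opposite directions, and 1.75% of all tested genes were called either way. h2ax1, a variant histone H2A, was already low in MZ embryos of 4 to 8 cells, with 145, 47.4 and 63.6 CPM in wt against 2.83, 2.32 and 3.84 CPM in MZ libraries, and at sphere stood at 115, 126 and 96.3 against 30.5, 31.5 and 22 CPM. MZ libraries lay below wt at both stages, and the gap narrowed (interaction 2.83, SE 0.51, adjusted p = 0.0286). h3f3d, a histone H3.3 gene, rose in both genotypes and less in MZ embryos, from 56.4, 63.1 and 60.4 to 156, 153 and 121 CPM in wt and from 66.9, 82.5 and 78.2 to 100, 113 and 97.3 CPM in MZ libraries (interaction -0.81, SE 0.17, adjusted p = 0.0354). Histone genes can share reads with near-identical copies, and with a library left out, h2ax1 passed in 6 and h3f3d in 3 of 12 fits (highest adjusted p = 0.0764 and 0.0965).

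Of 3 transcripts that fell in wt embryos, fhdc3 fell less, DEGS2 did not pass and NADK2 rose in MZ embryos. fhdc3, a formin-type gene of the actin cytoskeleton, stood at 274, 279 and 264 CPM in wt and 285, 265 and 248 CPM in MZ early libraries. At sphere it was at 71.4, 69.2 and 85.7 CPM in wt and 150, 192 and 199 CPM in MZ libraries, with no overlap. Falls of -1.85 and -0.56 gave an interaction of 1.29 (SE 0.16, adjusted p = 0.011). DEGS2, an enzyme of sphingolipid synthesis, went from 74.7, 73.3 and 86.9 to 28.4, 35.7 and 33.6 CPM in wt, while MZ libraries stood at 63.8, 52.6 and 52.9 and then at 57.6, 59.2 and 55 CPM. The genotypes overlapped at neither stage, with MZ libraries lower early and higher at sphere. DEGS2 fell in wt embryos only (log2 -1.27, against 0.02 in MZ), an interaction of 1.29 (SE 0.17, adjusted p = 0.011). NADK2, the NAD kinase of mitochondria, fell in wt (58.2, 49.7 and 55.1 to 29.9, 26.1 and 30.2 CPM) and rose in MZ libraries (44.1, 48 and 40 to 52.6, 60.9 and 65.7 CPM), an interaction of 1.36 (SE 0.17, adjusted p = 0.011). Its levels turned over in the same way, with no overlap at either stage. All 3 genes passed with each library left out.

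Genes of the spindle, the kinetochore and cytokinesis, a list put together after the called genes had been seen, were called in 1 direction only. Of 66 tested, 8 were called above wt and 0 below, against 1.07% and 0.684% of all genes. The interaction was positive for 51 of the 66 and negative for 15, with a median of 0.19. Over all genes 51.7% were positive. Because the list was chosen with these values known, its count supports nothing beyond its members. tacc3, which stabilises spindle microtubules, stood at 594, 662 and 548 CPM in wt and 580, 525 and 587 CPM in MZ early libraries, and at 168, 153 and 211 against 313, 405 and 429 CPM at sphere. The early levels overlapped and the sphere levels did not (interaction 1.2, SE 0.20, adjusted p = 0.02). PRC1 (ENSDARG00000005993), which bundles microtubules between separating chromosomes, went from 81.3, 80.6 and 69.7 to 24.7, 23.2 and 27.2 CPM in wt and from 76.8, 62 and 79.5 to 45.7, 46.4 and 48.7 CPM in MZ libraries (interaction 0.99, SE 0.17, adjusted p = 0.0226).

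The other 6 were anln2, a homologue of the contractile ring protein anillin (0.82, adjusted p = 0.02), cenpo (1.91, 0.0276) and cenpu (0.90, 0.0338) of the kinetochore, the microtubule polymerase CKAP5 (0.55, 0.0291), troap (0.66, 0.0317) and the ubiquitin ligase traip (0.62, 0.0477). Each of the 8 fell in wt embryos, and each except cenpo, with -0.20 (adjusted p = 0.541), also fell in MZ embryos. Without MZ sphere replicate 3 none of the 8 passed (adjusted p from 0.0665 to 0.14), and without MZ sphere replicate 2 anln2 alone did (0.0408). In the other 10 fits that left out a library, tacc3, PRC1 and anln2 passed throughout. The median of the list lay between 0.13 and 0.40 under all settings tried.

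Nuclear genes of oxidative phosphorylation, which encode the respiratory chain and the ATP synthase, fell less in MZ embryos at the median. The 94 tested genes had a median stage change of -0.81 in wt and -0.48 in MZ embryos, and 60 of them fell in wt against 42 in MZ embryos. Over all tested genes 25.6% fell in wt and 21.1% in MZ embryos. The summed level of all 104 listed genes went from a mean of 5006 to 3993 CPM in wt libraries. In MZ libraries it went from 4739 to 3900 CPM. The sphere sums overlapped (3644 to 4247 CPM in wt, 3526 to 4113 CPM in MZ), so the median over genes is no measure of the list's total RNA. The median interaction was 0.37, with 68 of 94 positive, against 51.7% of all genes. It lay between 0.27 and 0.53 under every setting tried. The 1949 genes that fell by over 2-fold had a median of 0.34 and 69.6% positive. That set fell further than the list, at medians of -1.56 in wt and -1.27 in MZ embryos. Genes that changed by under 0.5 on the log2 scale had a median interaction of -0.02. No set matched to the list's own stage change was compared. Called were 5 above wt and 0 below, against 1.07% and 0.684% of all genes. Without MZ sphere replicate 1 the calls were 8 above and 1 below, by DESeq2 13 and 2, and with a replicate block 1 and 1. Over all genes these settings called 330 above and 240 below of 16620, 759 and 688 of 16505, and 124 and 88 of 16525. The list's calls above wt ran from 0 to 13 over the settings tried. The 13 mitochondrially encoded genes of the same complexes gave no call by edgeR or DESeq2, none at an unadjusted p under 0.05, and a median of 0.03.

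The 5 called members were 3 subunits of cytochrome c oxidase and 2 genes of the ATP synthase. atp5if1a, an inhibitor of the ATP synthase, was higher in MZ embryos at both stages, with 30.1, 48.8 and 39.8 CPM in wt and 80.5, 90.8 and 74.2 CPM in MZ early libraries, and 10, 8.5 and 8.22 against 46.9, 54.5 and 44.5 CPM at sphere. The gap widened because the fall was -2.15 in wt and -0.75 in MZ embryos (interaction 1.4, SE 0.24, adjusted p = 0.0248). cox6c went from 31.6, 33.3 and 30.5 to 6.67, 7.02 and 7.73 CPM in wt and from 31, 26.9 and 27.8 to 13.4, 14.9 and 11.9 CPM in MZ libraries (interaction 1.06, SE 0.20, adjusted p = 0.031). atp5mc1, which encodes the membrane ring subunit, went from 204, 186 and 179 to 74.4, 96.2 and 112 CPM in wt and from 162, 175 and 144 to 135, 167 and 158 CPM in MZ libraries (0.94, SE 0.20, adjusted p = 0.0399). The interactions of cox6a1 and cox6b2, named after their values were seen, were 1.14 and 0.89, with adjusted p-values of 0.0401 and 0.044. Without MZ sphere replicate 2 or 3, atp5if1a, cox6c, atp5mc1 and cox6b2 lost their calls (adjusted p from 0.0665 to 0.109), and cox6a1 passed in 3 of 12 fits with a library left out.

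**Figure D4:**
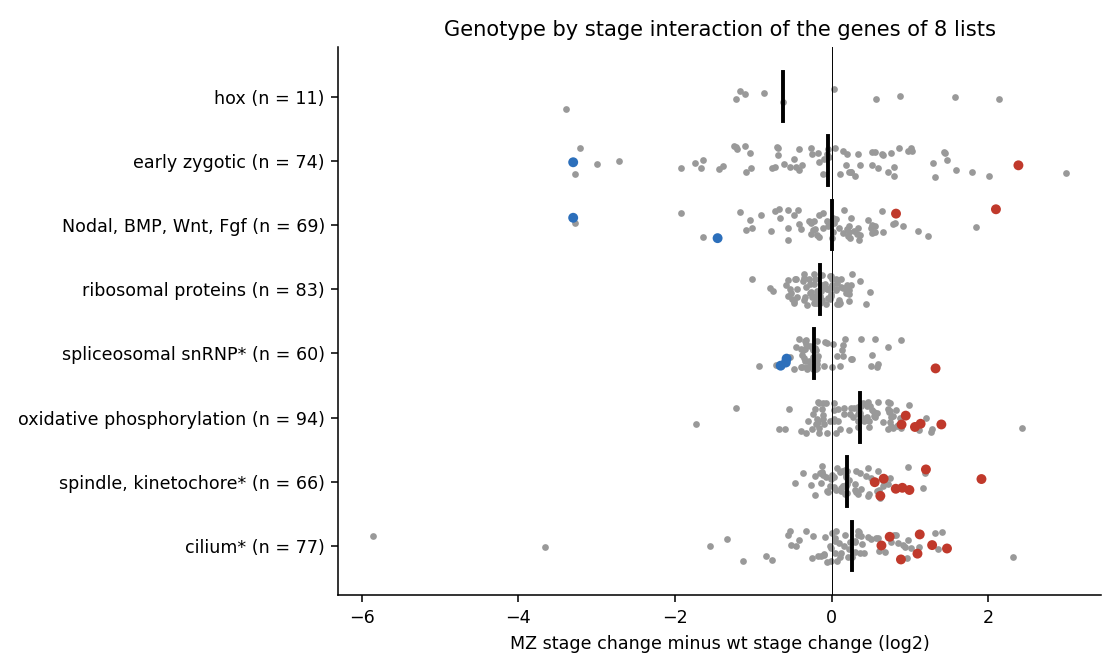
Interaction of each tested gene in 8 lists, on the log2 scale, with called genes in red (above wt) or blue (below), other genes in grey and the list median as a black bar. An asterisk marks the 3 lists put together after the values were seen. The medians run from -0.62 for hox genes to 0.37 for oxidative phosphorylation. Nothing is read from the hox median, since genes high in MZ early libraries alone could pass the count filter.

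Genes of the spliceosomal small ribonucleoproteins, which cut introns out of pre-mRNA, had a negative median interaction. The list, also made after the called genes were seen, had 60 tested members. Of these 3 were called below and 1 above wt, against 0.684% and 1.07% of all genes. The median was -0.22, with 19 positive and 41 negative values, against 51.7% positive over all genes. In wt embryos 36 of the 60 rose, and the 2022 genes that rose by over 2-fold had a median of -0.26 and 37.8% positive. That set rose further than the list, at medians of 3.17 in wt and 2.84 in MZ embryos, against 0.51 and 0.29. Genes that changed by under 0.5 on the log2 scale had a median interaction of -0.02. No set of genes with a like stage change was compared. The direction of the list's calls turned with the tool, since limma called 3 above and 0 below wt on log2(TPM + 1) and 2 above and 0 below on log2(TPM + 0.1). Over all 16525 genes limma called 280 above and 105 below on the first scale, and 228 above and 67 below on the second. SNRPB, a core protein of these particles, rose from 271, 239 and 248 to 573, 481 and 484 CPM in wt and from 277, 250 and 274 to 340, 369 and 325 CPM in MZ libraries. It was lower in all MZ sphere libraries than in any wt sphere library (interaction -0.65, SE 0.13, adjusted p = 0.0328). SNRPA1 (-0.59, adjusted p = 0.0344) and PPIH (-0.58, adjusted p = 0.0449) rose in wt, and PPIH did not pass in MZ embryos. The called gene above wt was smn1, which assembles the particles and fell in wt embryos alone (-1.44, against -0.12 in MZ, interaction 1.33, adjusted p = 0.031). None of the 4 passed without MZ sphere replicate 2 or 3 (adjusted p from 0.0751 to 0.114), and the list median stayed between -0.28 and -0.04. The 83 ribosomal protein genes gave no call by edgeR, 13 at an unadjusted p under 0.05, 8 calls below wt by DESeq2, 0 by limma, and a median of -0.14 (59 of 83 negative) that was 0.03 by limma on log2(TPM + 1), a scale on which the median of all genes shifted by 0.151. Over all genes, 3424 of 16525 were at an unadjusted p under 0.05, and DESeq2 called 688 of 16505 below wt.

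Cilium genes, the third list made with values in view, had 7 called above and 0 below wt among 77 tested, against 1.07% and 0.684% of all genes, with a median of 0.26 (0.13 to 0.39 over the settings tried). The calls above wt fell to 2 with a replicate block or with no filter, and DESeq2 called 10 above and 2 below. Over all genes the calls above wt were 124 of 16525 with the block and 149 of 26556 with no filter. By DESeq2 they were 759 above and 688 below of 16505. c2cd3, a centriole protein needed to begin a cilium, fell from 138, 155 and 151 to 44.3, 44.5 and 52.6 CPM in wt and from 121, 132 and 128 to 74.4, 58 and 70.3 CPM in MZ libraries (interaction 0.74, SE 0.15, adjusted p = 0.036). hydin, of the motile cilium, stood at 24.4, 27.9 and 26.3 CPM in wt and 15.4, 15.7 and 13.2 CPM in MZ early libraries, and the sphere levels differed less (11.1, 13.4 and 8.65 against 13.1, 14 and 18.3 CPM, interaction 1.28, SE 0.28, adjusted p = 0.0433). The other calls included tctn2 (1.09), ttbk2b (0.63), INTU (0.88) and ccdc40 (1.47). None of the 7 passed without MZ sphere replicate 2 or 3 (adjusted p from 0.0582 to 0.133).

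Among genes of the oocyte and germ line, WEE2, a kinase that holds back the cell cycle in oocytes and eggs, was the single called gene of 38 maternal egg genes. It rose in wt (330, 312 and 291 to 425, 333 and 440 CPM) and fell in MZ libraries (361, 353 and 354 to 254, 290 and 279 CPM), an interaction of -0.74 (SE 0.15, adjusted p = 0.0328). MYBL1, a transcription factor known from mouse meiosis, was the single call of 31 germ plasm and piRNA genes. It fell in wt from 16.1, 25.8 and 20.2 to 3.61, 3.28 and 6.5 CPM, while MZ libraries stood at 12.4, 7.98 and 11.4 and then 8.15, 16.4 and 20 CPM (2.71, SE 0.51, adjusted p = 0.0298). With a library left out each passed in 4 of 12 fits (highest adjusted p = 0.0847 and 0.0924). Over all tested genes 1.75% were called, and nothing about these lists is read from a single call.

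DDB2, which recognises damaged DNA, was the single call of 45 p53 and DNA damage genes, at 78.6, 81.2 and 72.3 CPM and then 29, 34.7 and 38.9 CPM in wt, and 79.2, 77.7 and 78.4 CPM and then 55.3, 62.7 and 66.4 CPM in MZ libraries (0.83, SE 0.16, adjusted p = 0.0328). Of 242 numbered zinc finger genes, znf469 was called, and it fell in both genotypes, less in MZ (log2 -1.26) than in wt embryos (-5.14). It went from 39.2, 13.4 and 20.2 to 1.22, 0.193 and 0.613 CPM in wt and from 80.2, 57.1 and 36.6 to 30.6, 23.6 and 18.7 CPM in MZ libraries (3.88, SE 0.72, adjusted p = 0.0286). DDB2 passed in 3 and znf469 in 8 of 12 fits with a library left out (highest adjusted p = 0.102 and 0.0751). Nothing about either list is read from its single call, since 1.75% of all tested genes were called. The 94 homeobox genes outside the hox clusters had a median interaction of 0.06.

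The hox genes, which pattern the head-to-tail axis and are the genes the study turned to, gave no called interaction. Of 47 listed genes 11 were expressed enough for the test. Over all genes, 3424 of 16525 were at an unadjusted p under 0.05. DESeq2 called 688 of 16505 below wt, and limma on log2(TPM + 1) called 385 of 16525. Of the 11 hox genes, edgeR called 0, and 2 were at an unadjusted p under 0.05. DESeq2 called 1 of them below wt, and limma on log2(TPM + 1) called 2 of them. Their median stage change was -1.53 in wt and -1.60 in MZ embryos, and the median interaction was -0.62, with 5 positive and 6 negative values and a range from -1.12 to 0.06 over the settings tried. The summed level of all 47 fell in both genotypes, from 11.34 to 23 CPM at the 4- to 8-cell stage to 6.849 to 12.57 CPM at sphere in wt libraries, and from 58.95 to 68.56 CPM to 25.5 to 33.83 CPM in MZ libraries. MZ sums lay above wt sums at both stages, and the highest were those of MZ 4- to 8-cell libraries. The count filter used the mean over all libraries, so genes high in that group alone could pass. Such genes tend to a negative interaction by selection, so nothing is read from the median of the list.

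Single hox genes showed several courses that the test did not separate at these levels. HOXB2 fell in both genotypes, from 1.76, 1.16 and 1.21 to 0.367, 0.451 and 0.552 CPM in wt and from 9.43, 11.9 and 18.4 to 1.97, 1.68 and 2.02 CPM in MZ libraries (interaction -1.23, SE 0.48, adjusted p = 0.178). HOXC11 had nearly equal falls, -1.01 in wt and -0.99 in MZ embryos, at 1.93, 1.89 and 2.96 and then 0.673, 0.902 and 1.78 CPM in wt and 11.3, 9.17 and 11 and then 6.44, 5.16 and 4.35 CPM in MZ libraries. Its interaction was 0.02 (SE 0.43), and its sign changed with the scaling. HOXC10 stood at 0.21, 0.629 and 0.301 and then 0.306, 0.386 and 1.29 CPM in wt, and at 7.08, 5.61 and 6.22 and then 4.21, 8.02 and 5.74 CPM in MZ libraries, with overlapping MZ levels at both stages (-0.86, SE 0.75, adjusted p = 0.549). The lowest adjusted p was that of hoxc11b (-3.40, SE 1.00, adjusted p = 0.095), which stood at 2.15, 3.17 and 0.488 CPM in MZ early libraries and at 0.526, 0.311 and 0.31 CPM at sphere. HOXD10 had 0 counts in all wt sphere libraries and 0, 0.194 and 0 CPM in wt early ones, so that a stage change in wt could not be measured.

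The largest interactions belonged to low transcripts. TSPAN18 (ENSDARG00000056656), a tetraspanin of the cell membrane, had 10.6, 2.37 and 2.56 CPM in wt and 0.586, 0.396 and 0.914 CPM in MZ early libraries, and 0.122, 0.0644 and 0.184 against 4.07, 3.48 and 3.65 CPM at sphere. The order of the genotypes turned over completely (interaction 7.86, SE 0.95, adjusted p = 0.00914), and the call held with each library left out. ms4a17a.8, a membrane protein gene, fell in wt from 16.8, 4.11 and 21.6 to 0.122, 0.322 and 0 CPM, while MZ libraries stood at 17.6, 9 and 19.7 and then 7.49, 11.3 and 9.7 CPM (5.84, SE 1.00, adjusted p = 0.0234). It was lost without wt sphere replicate 1 or MZ sphere replicate 2 or 3 (highest adjusted p = 0.0686).

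Other large values above wt were those of TRPM6, a magnesium channel (6.47, adjusted p = 0.0327), the chemokine receptor CCR6 (ENSDARG00000087474, 5.91, 0.0289), kctd12b (5.54, 0.0344), HSPA8 (ENSDARG00000037403, 4.85, 0.0401), a low copy of a heat shock protein gene, and cers3b, a ceramide synthase (4.60, 0.0248). TRPM6 differed at the early stage, at 32.4, 26 and 0.753 CPM in wt and 0.684, 0.736 and 0.853 CPM in MZ libraries, and wt replicate 3 lay with the MZ libraries. kctd12b spread likewise in wt early libraries, at 1.93, 12 and 31.8 CPM, against 0.44, 0.963 and 0.67 CPM in MZ libraries. All 5 lost their calls without MZ sphere replicate 2 or 3 (adjusted p from 0.0528 to 0.107). The rule for these names required that no library difference overlapped, so their separation is not a result.

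The largest values below wt were of the same kind. ITGA10, an integrin, rose in wt from 1.22, 0.677 and 0.803 to 5.2, 13.5 and 7.67 CPM, while MZ libraries stayed at 0.44, 0.17 and 0.305 and then 0.131, 0.124 and 0.0776 CPM (-4.70, SE 0.77, adjusted p = 0.02). AGMAT, a mitochondrial hydrolase, went from 3.02, 1.94 and 2.06 to 4.71, 13.4 and 11.2 CPM in wt and from 7.42, 6.34 and 6.09 to 0.526, 1.68 and 2.17 CPM in MZ libraries (-4.18, SE 0.66, adjusted p = 0.0184). fbxo41, of the F-box family, stood at 23.8, 2.32 and 18.3 CPM in wt sphere libraries and 0, 0.56 and 1.4 CPM in MZ sphere libraries (-5.09, adjusted p = 0.0484), with wt replicate 2 near the MZ libraries. The others were ALDH8A1, an aldehyde dehydrogenase (-6.33, adjusted p = 0.0286), itpka, a kinase of inositol trisphosphate (-4.85, 0.0286), TESK1 (ENSDARG00000078251), a kinase (-4.82, 0.0232), MEF2A, a transcription factor of muscle (-4.64, 0.0244), and NRN1L (-4.59, 0.0325). Without MZ sphere replicate 2 none of these 8 passed (adjusted p from 0.0638 to 0.124), and without MZ sphere replicate 3 AGMAT and MEF2A did (0.0385 and 0.0408).

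For 2 called genes, named after their values were seen, a group held almost no counts, and the fitted value is no measure of size. il17ra1a, a receptor of interleukin 17, had 0 counts in the MZ 4- to 8-cell libraries together and 72 in the MZ sphere libraries, at least 35.8-fold higher against a floor of 3 counts over the group. In wt libraries it had 71 and 26 counts, a sphere to early ratio of 0.489. ADAMTSL2, a protein of the extracellular matrix, had 121 counts in MZ early and 1 in MZ sphere libraries, a ratio of 0.0123 (95% counting interval 0.00031 to 0.07), against 178 and 121 counts and a ratio of 0.908 in wt libraries. Such floors and intervals account for counting error alone. The adjusted p-values of the interaction were 0.0129 and 0.021 (edgeR), and il17ra1a passed with each library left out.

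The remaining lists held few or no calls, and 1.75% of all tested genes were called by edgeR. Over all genes, 3424 of 16525 were at an unadjusted p under 0.05. DESeq2 called 1447 of 16505, 759 above and 688 below wt. Activators of the zygotic genome gave 0 calls of 31 by edgeR, with 9 at an unadjusted p under 0.05 and 1 call by DESeq2. Proteasome subunits gave 0 of 53, with 9 at an unadjusted p under 0.05 and 3 calls above wt by DESeq2. Of 54 cell cycle genes WEE2 alone was called by edgeR, while DESeq2 called 4 above and 5 below. Genes of the enveloping layer, the outer cell sheet of the blastula, gave 0 of 33 (4 at an unadjusted p under 0.05, 1 call by DESeq2), immediate-early genes 0 of 26 (7 and 3), and interferon and MHC class I genes 0 of 26 (4 and 0). Of 35 clustered protocadherin genes, a known target family of Smchd1 in mammals, 1 was expressed enough for the test and did not pass, with stage changes of -0.38 in wt and 5.69 in MZ embryos (interaction 6.07, 1 of 1 at an unadjusted p under 0.05). Its interaction ran from 0.58 to 6.74 over the settings tried. All 35 genes together summed to group means of only 2.747 to 5.849 CPM, so this value is no measure of size.

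Genes with a genotype difference over both stages together were called more often for the interaction than the rest. Of the 1253 genes (7.58%) higher in MZ embryos on average, 70 were called above and 9 below wt. Of the 1418 genes (8.58%) lower on average, 27 were called above and 45 below. Called shares were 6.3% and 5.08%, against 1% of the 13854 other genes. Both differences come from the same 12 libraries, and a genotype difference at 1 stage alone enters both, so the higher shares are in part built in. This split was given no test, and nothing is read from it.

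How much of the set rests on single libraries was measured by leaving each out. Of the 290 called genes, 26 passed in all 12 such fits and 102 in at least 6, and no gene called both times changed sign. The 26 included gdf3, BMP2, MAF1, FTO, RAB10, QSER1, PRRC2B, FNDC1, erbb3b, TSPAN18, EFNA1, fhdc3, DEGS2 and NADK2. Also among them were LRP3, a receptor of the lipoprotein receptor family (interaction 1.71), ESYT2 (ENSDARG00000078964), a tether between membranes (1.70), ASAP2 (1.52), sertad3 (1.97), PJA2, a ubiquitin ligase (0.91), and SNX1 (ENSDARG00000103529), a sorting nexin of endosomes (-1.86). Counts of called genes ran from 31 without MZ sphere replicate 2 and 33 without MZ sphere replicate 3 to 570 without MZ sphere replicate 1 and 805 without wt sphere replicate 3. All of the 31 and all of the 33 were among the 290, and 271 and 286 of the 290 were among the 570 and the 805.

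**Figure D5:**
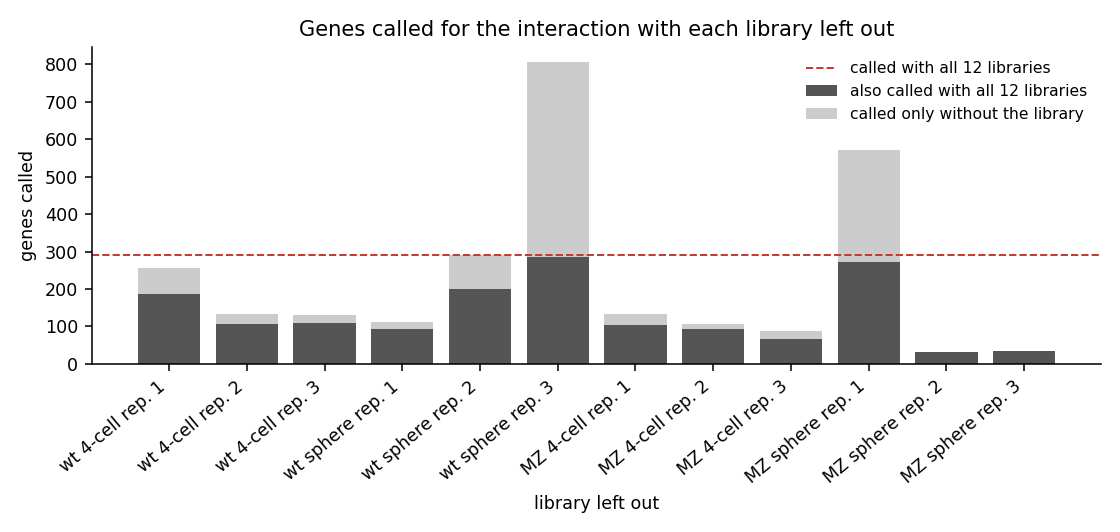
Genes called for the interaction when the library on the horizontal axis is left out, split into those also called with all 12 libraries (dark) and the rest (light). The dashed line marks the 290 calls with all libraries. Counts fall to 31 and 33 without MZ sphere replicates 2 and 3 and rise to 805 and 570 without wt sphere replicate 3 and MZ sphere replicate 1.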

How the data were processed

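Poly-A RNA from pools of zebrafish embryos was sequenced in 12 libraries, 3 for each genotype and stage. Per the labels and the submitters' processing notes, the authors aligned reads with Bowtie (version not given in the sources used here) to danRer10 with an Ensembl annotation. They deposited RSEM expected counts per gene, which need not be whole, and TPM per gene, a length-scaled abundance that RSEM derives from them. Here the deposited expected counts were first rounded. Without the ribosomal RNA gene zgc:158463, the 16525 of 31462 genes whose mean count was over 10 on the TMM scale (trimmed mean of M-values) were tested.

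A single edgeR 4.0.16 quasi-likelihood model (R 4.3.3) with 4 group means gave the interaction, both stage changes and both genotype differences, each called at a Benjamini-Hochberg adjusted p under 0.05. Every adjusted p in the text is from such a model over all tested genes, unless DESeq2 or limma is named. Symbols came from the gene name table for 25752 identifiers (81.9%). Symbols in capitals do not say which of 2 zebrafish copies is meant, so the identifier is given where 2 carry a symbol. In simulated data with 200 changed genes among 16519, the interaction test recovered 22.4% of changes of 1 log2 unit, 53.7% of 2 and 81.8% of 4. Of the simulated calls, 5.41% were false. Simulated counts were drawn independently for each gene and library from the fitted spread, so they held no shift shared by a library's genes. These rates are thus not the error rates of the calls in the real libraries. Depth was 7829742 to 23681822 counts per library.

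Named were smchd1 and each tested hox gene, the 8 largest interactions in each direction and the 6 smallest adjusted p-values in each direction among called genes with a proper symbol, over 3 counts in each group and no overlap of library stage differences, and up to 3 called genes of each of 28 gene lists. A further 3 lists (spindle, spliceosome, cilium) and other genes were chosen after their values were seen. Members and lists were chosen with earlier results of these data known, and support nothing by themselves. Alternatives were other scaling factors and filters, unrounded counts, DESeq2 1.42.0, limma 3.58.1 on log2(TPM + 1) and log2(TPM + 0.1), no mitochondrial genes, a replicate block, and each library left out. Replicates of each group differed by more than sampling noise. Some genes that met these rules are not reported here.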

Additional observations from a re-analysis of the deposited data

Results flagged for a closer look

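Each gene below had an effect of stage that differed between wt and MZ embryos by the test of the difference itself (edgeR quasi-likelihood, adjusted p under 0.05), and is given with its interaction on the log2 scale. Above wt lay TSPAN18 with 7.86, TRPM6 with 6.47, CCR6 with 5.91, ms4a17a.8 with 5.84, kctd12b with 5.54, HSPA8 with 4.85, FNDC1 with 4.65, cers3b with 4.60, erbb3b with 4.16 and znf469 with 3.88. Between 2 and 3 were h2ax1 with 2.83, MYBL1 with 2.71, APLNR with 2.38 and FZD8 with 2.1. The smaller values above wt were 1.4 for atp5if1a, 1.36 for NADK2, 1.29 for fhdc3, 1.29 for DEGS2, 1.06 for cox6c, 0.94 for atp5mc1, 0.83 for DDB2 and 0.63 for setdb1a.

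Below wt lay ALDH8A1 with -6.33, fbxo41 with -5.09, itpka with -4.85, TESK1 with -4.82, ITGA10 with -4.70, MEF2A with -4.64, NRN1L with -4.59, AGMAT with -4.18, QSER1 with -3.49 and BMP2 with -3.30. The smaller values were -2.08 for FTO, -1.94 for DNMT3A, -1.46 for gdf3, -1.29 for MAF1, -1.2 for ESCO2, -1.04 for RAB10, -0.81 for h3f3d, -0.74 for WEE2 and -0.72 for nsmce4a. Of these 41 genes 12 passed with each library left out, and 12 and 14 passed without MZ sphere replicate 2 and 3.

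A signal outside the tested genes was the ribosomal RNA gene, which took 1.56% ± 2.09 (SD, n = 3) of counts in MZ sphere libraries and 0.0127% ± 0.00831 (SD, n = 3) in wt sphere libraries. Its part in the interaction was not tested.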

How the results depend on the processing

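The count of 290 called genes (177 above and 113 below wt, 195 over 2-fold) depended on the setting. No gene called both times changed sign, 1 of the 290 had the opposite sign by limma on log2(TPM + 1), and the share of calls above wt ran from 48.5% to 77.3%. DESeq2 called 1447 (759 above, 688 below, 702 over 2-fold), 287 of them among the 290. Upper-quartile factors gave 174 below wt. On log2(TPM + 1), limma called 280 above and 295 over 2-fold, with 187 shared, and on log2(TPM + 0.1) it called 67 below. Leaving out 1 library gave 31 to 805 calls, 16 to 515 above, 13 to 290 below and 29 to 384 over 2-fold.

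Among the named genes, signs turned for 5 hox genes, none of them called. HOXB13 had 0.15 and HOXB7 -0.93 by limma on log2(TPM + 1). The interaction of HOXD10 was -0.27 by DESeq2, -1.64 and -2.25 by limma with pseudocounts of 1 and 0.1, and -2.69 to 1.1 with a library left out. The interaction of HOXC10 ranged from -1.42 to 0.06 with a library left out. The interaction of HOXC11 was -0.0 with DESeq2's size factors in edgeR, -0.03 with upper-quartile factors, -0.01 by DESeq2, -0.35 by limma on log2(TPM + 1), and -0.24 to 0.53 with a library left out. The cause was not tested.

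With the replicate number as a block, 212 genes were called (124 above, 88 below, 155 over 2-fold), 187 of them among the 290. The numbers pair nothing by label, and deviations of same-numbered libraries correlated from -0.0509 to 0.252, with 1 of 18 pairs above 0.1. That pair was wt and MZ sphere replicate 3, and differently numbered pairs ran from -0.195 to 0.145. Both libraries of that pair had the smallest median stage change of their group among genes that rose or fell by over 2-fold. What else they share beyond a number was not tested. Pattern counts without MZ sphere libraries, list medians over settings and 3 lists were added after seeing the data. Depth limits low genes, for which a stage change was not always detectable.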
